A study of Mus musculus with 12 samples.

Results

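The hypoxia and HIF pathway genes described here were a set of 35 mouse genes, named by symbol and found among the 56941 genes of the count tables through their Ensembl identifiers: the subunits of the hypoxia-inducible factors (HIF), the hydroxylases that switch them off, and known HIF target genes outside core glycolysis. All 35 were found. They were measured by RNA sequencing in bone marrow-derived macrophages of C57BL/6J mice, either wild-type (WT) or lacking miR-210 (KO), with 3 libraries in each of 4 groups. WT M0 and KO M0 macrophages were monocytes differentiated for 7 days in medium with 20% serum and 30% L929-conditioned medium, the source of the growth factor M-CSF. WT M2 and KO M2 macrophages were in addition given 20 ng/ml interleukin 4 (IL-4) for 72 h, which drives the alternative, M2 type of activation, while the M0 wells were kept in the same conditions without it. The KO allele came from floxed miR-210 mice crossed with Gata-1 Cre mice and was bred from heterozygous parents together with the WT controls, so the deletion was not limited to macrophages. Neither the age of the mice nor the oxygen level of the cultures was given in the sources used here, and nothing in the labels ties a library to an animal, so p-values measure only the spread between these libraries.

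HIF is a dimer of an oxygen-regulated alpha subunit, encoded by Hif1a or Epas1, and a stable partner encoded by Arnt. When oxygen is present, prolyl hydroxylases (Egln1, Egln2, Egln3) mark the alpha subunit for destruction by the ubiquitin ligase that contains the Vhl protein, and the asparagine hydroxylase Hif1an blocks its activity, so that HIF is controlled mainly as a protein and messenger levels do not measure it. HIF binds a short DNA word near its targets, which serve glucose uptake, lactate export, mitochondrial removal, collagen hydroxylation and angiogenesis. MiR-210 is itself a well known HIF target, and macrophages use HIF in inflamed and poorly perfused tissue.

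Sequences that bear on HIF and on miR-210 are shown first, as matches of letters only. The core of the HIF binding site was searched as ACGTG or GCGTG on both strands in the RefSeq promoters (build GRCm38.p6), which run from 250 bases before to 50 bases after each gene start. A promoter was listed for 29 of the 35 members, all except Epas1, Bnip3l, Ndrg1, Plod2, Kdm4b and Bhlhe40. A word was present in 27 of these 29 genes and in 33 of their 40 promoters (82.5%), against 14319 of all 32544 promoters (44.0%). Many members were listed as known HIF targets, so a higher share was built into the list and is no separate finding. Promoters of the same gene can also overlap, as promoters 1 to 3 of Ak4 do. The member promoters were also richer in G and C, with a median of 65.0% against 53.0%, and both words contain CG. Below are the stretches before the start of 3 members that the results turn on: Egln3, which differed between genotypes, Bnip3, which fell after IL-4, and Slc2a1, which rose. Each was located by exact match in GRCm39 and ends before the annotated gene, and capitals mark the words on either strand.
Egln3, chr12:54250674-54250910, minus strand: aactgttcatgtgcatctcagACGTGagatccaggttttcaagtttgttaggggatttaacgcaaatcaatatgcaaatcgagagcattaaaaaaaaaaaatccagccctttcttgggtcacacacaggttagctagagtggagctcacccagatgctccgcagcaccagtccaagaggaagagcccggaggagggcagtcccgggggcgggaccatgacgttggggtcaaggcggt
Bnip3, chr7:138511254-138511485, minus strand: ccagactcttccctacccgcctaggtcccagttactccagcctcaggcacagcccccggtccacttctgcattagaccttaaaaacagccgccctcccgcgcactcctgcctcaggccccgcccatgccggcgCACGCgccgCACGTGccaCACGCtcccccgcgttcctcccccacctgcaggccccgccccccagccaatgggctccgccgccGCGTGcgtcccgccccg
Slc2a1, chr4:118965692-118965907, plus strand: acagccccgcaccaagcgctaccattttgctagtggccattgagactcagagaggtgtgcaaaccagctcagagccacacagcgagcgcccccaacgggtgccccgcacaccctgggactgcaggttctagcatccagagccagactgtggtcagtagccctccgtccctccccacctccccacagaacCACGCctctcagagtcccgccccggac
The Egln3 stretch held 1 word, the Bnip3 stretch 5, of which 2 are the strands of the same palindrome, and the Slc2a1 stretch 1. The searched Slc2a1 promoter held 2, and the printed stretch ends inside the other word, an ACGTG that spans the annotated gene start. A word is a match of letters and not a bound site.

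The guide strand of miR-210 is shown with its seed, bases 2 to 8, in capitals, because the KO removes it.
mmu-miR-210-3p: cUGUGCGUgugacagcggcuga
The word complementary to the seed, ACGCACA, was present in the 3′ untranslated region of 3 of the 35 members, Pdk1, Plod1 and Fam162a, and in 846 of 21540 genes (3.93%). None of these 3 members passed the test between genotypes, and Egln3 holds no such word in the transcript used. Pdk1 differed by 0.16 ± 0.09 (SE) on the log2 scale between KO M0 and WT M0, Plod1 by -0.05 ± 0.08 and Fam162a by 0.26 ± 0.15.

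Library totals ran from 7930525 to 10167695 counts. In WT M0 library 2 stood apart: the chi-square per gene between libraries was 8.45 and 6.2 for it against the others and 2.9 between those. In KO M0 all pairs were far apart, at 9.85 and 8.42 for library 2 and 6.63 between the others, while pairs of M2 libraries were at 1.89 to 4.81. The calls of several members turned on library 2 of WT M0 or KO M0, and these members are named below with their values without it. The miR-210 gene itself, Mir210, had 1, 3 and 5 counts in WT M0, 1, 2 and 1 in WT M2 and 0 in all 6 KO libraries, which goes with the labels at very low counts. Arg1, a marker of M2 activation, was at 34.2 to 85.2 CPM (counts per 1000000 counts of the library, scaled by TMM factors) in the 6 M0 libraries and 1787 to 1997 in the 6 M2 libraries. Retnla, another, was at 0 in all M0 libraries and 269 to 470 CPM in M2, and Mrc1 was at 1473 to 2048 CPM in M0 and 2502 to 3274 in M2. The 7 macrophage markers summed to 7244 to 9892 CPM, of which Lyz2 alone was 3931 to 5866. Fcgr1 was at 394 to 583.5 CPM in WT M0, 320 to 352 in KO M0 and 39.6 to 67.1 in M2. Itgam went the other way, at 238 to 313 CPM in WT M0, 334 to 371.5 in KO M0 and 391 to 452 in M2. Mertk was at 165 to 213 CPM in M0 and 73.5 to 105 in M2. Lyz2 and Adgre1 were also lower in M2, and Cd68 and Csf1r overlapped. Markers of neutrophils stayed at or below 4.61 CPM in sum and those of lymphocytes at or below 0.246. Erythroid markers summed to at most 2.81 CPM in WT M0 and 3.66 in WT M2, and were at 0 in all 6 KO libraries. Each group also has its own batch name in the labels, and a batch effect cannot be told apart from a group effect.

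The members covered a wide range of levels. Adm, which encodes the vasodilator adrenomedullin, Plod2, a collagen lysyl hydroxylase, and Stc2, a secreted glycoprotein, had at most 4, 7 and 1 counts in any library and were too low to test. The other 32 members were tested in every comparison. Per kilobase of exon, as CPM divided by exon length, the unit in which genes can be set against each other, Vegfa, the angiogenic growth factor, was the most abundant member in WT M0 at 83.8, followed by the collagen prolyl hydroxylase subunit P4ha1 at 40.5 and the mitophagy receptor Bnip3l at 32. Hif1a stood at 27.6 ± 2.1 (SD, n = 3) in WT M0 and its sister subunit Epas1 at 0.783 ± 0.046. The 3 prolyl hydroxylases were close to each other in WT M0, with Egln1 at 10.6, Egln2 at 10.2 and Egln3 at 9.06. With the length of the longest transcript in place of all exons, Egln1 stood at 16.4, Egln2 at 18.1 and Egln3 at 9.06, so the order of these 3 depends on the length used.

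The first question was whether the HIF subunits and their regulators differed between genotypes or activation states. Hif1a was at 222, 250 and 219 CPM in WT M0, 247, 259 and 267 in KO M0, 234, 240 and 258 in WT M2 and 241, 248.8 and 260 in KO M2. The groups overlapped, and no comparison passed the test for Hif1a. Arnt was at 69.1, 81.6 and 61.6 CPM in WT M0, 49.8, 74.4 and 64.0 in KO M0, 59.3, 55.8 and 55.2 in WT M2 and 54.9, 48.2 and 63.9 in KO M2. Only the fall of Arnt in WT cells after IL-4 passed, by 0.31 ± 0.10 (SE) on the log2 scale (edgeR adjusted p = 0.0177). It did not pass without WT M0 library 2, where the change was -0.19, nor without WT M2 library 2 or 3, nor with all 12 libraries in a single fit (-0.31, adjusted p = 0.0614).

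Epas1 encodes HIF-2α. It was at 4.72, 4.23 and 4.32 CPM in WT M0, 6.03, 7.53 and 5.30 in KO M0, 7.72, 6.28 and 7.13 in WT M2 and 7.81, 9.04 and 9.47 in KO M2. WT M0 was the lowest group, with all of its libraries below those of the other 3 groups. Epas1 rose after IL-4 in WT cells by 0.68 ± 0.17 (adjusted p = 0.00495), and in KO cells the difference was 0.50 ± 0.18 (adjusted p = 0.0522). The KO difference was called in 2 of the 10 alternatives with all libraries and, at 0.64, without KO M0 library 2. Between genotypes it was 0.50 ± 0.20 in M0 (adjusted p = 0.436) and 0.32 ± 0.15 in M2 (adjusted p = 0.468), and neither passed.

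Vhl, the substrate receptor of the ligase, was at 53.4, 47.4 and 52.0 CPM in WT M0, 61.2, 49.7 and 57.0 in KO M0, 50.2, 56.9 and 60.6 in WT M2 and 53.9, 59.2 and 50.2 in KO M2. Hif1an was at 56.2, 56.6 and 58.1 CPM in WT M0, 49.8, 60.3 and 59.9 in KO M0, 56.6, 63.0 and 63.0 in WT M2 and 58.4, 57.4 and 63.3 in KO M2. Both genes overlapped between all groups and passed in no comparison. Egln1, the main oxygen sensor in most cells, was at 95.6, 100.8 and 89.9 CPM in WT M0, 117, 98.3 and 114 in KO M0, 94.2, 94.2 and 92.7 in WT M2 and 86.6, 100.2 and 97.6 in KO M2. Egln2 was at 79.7, 70.8 and 87.0 CPM in WT M0, 86.9, 74.3 and 90.6 in KO M0, 84.7, 89.1 and 88.1 in WT M2 and 87.1, 87.4 and 86.5 in KO M2. Neither passed in any comparison, and the largest difference of the pair was -0.19 ± 0.09 for Egln1 after IL-4 in KO cells. Without KO M0 library 2 this difference was -0.28 and was called (edgeR adjusted p = 0.0222).

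**Figure D1:**
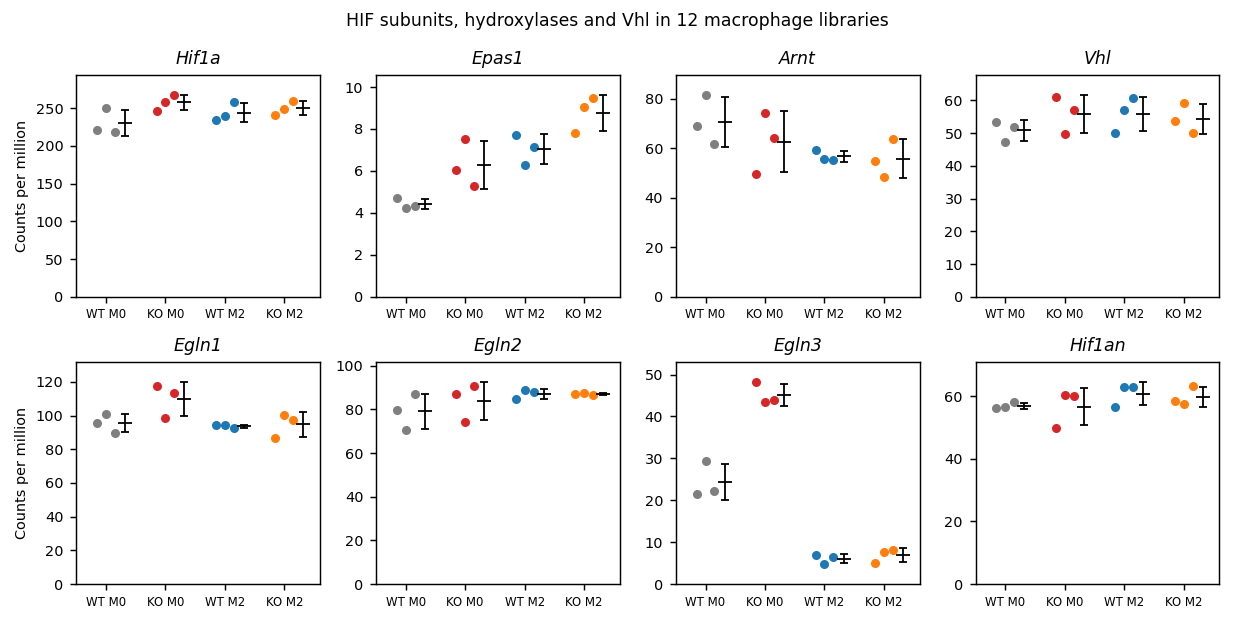
CPM, TMM-scaled (vertical axis, from 0) of 8 genes of the HIF machinery in the 4 groups, each coloured point a library and each black bar the mean ± SD of 3 libraries. Egln3 sits between 43.4 and 48.2 in KO M0, above 21.5 to 29.3 in WT M0, and at 8.22 or below in all M2 libraries, while Hif1a overlaps between the groups.

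Egln3, the prolyl hydroxylase that is itself a strong HIF target, was the exception (ENSMUSG00000035105, chromosome 12, 54225767 to 54250673, minus strand, GRCm39). It was at 21.5, 29.3 and 22.2 CPM in WT M0 and 48.2, 43.4 and 43.9 in KO M0. In M2 it was at 7.02, 4.81 and 6.40 in WT and 5.01, 7.58 and 8.22 in KO. All KO M0 libraries were above all WT M0 libraries, the M2 libraries of both genotypes overlapped, and every M2 library was below every M0 library. Egln3 was 1.83-fold higher in KO M0, by 0.87 ± 0.12 (SE) on the log2 scale (edgeR quasi-likelihood test, adjusted p = 0.0104). In M2 the genotype difference was 0.21 ± 0.20 (adjusted p = 0.805). After IL-4 it fell by 2.0 ± 0.17 in WT (adjusted p = 4.03e-07) and by 2.68 ± 0.15 in KO cells (adjusted p = 2.22e-08). The call between genotypes in M0 was lost without WT M0 library 1 (0.79, adjusted p = 0.0746) or WT M0 library 3 (0.81, adjusted p = 0.11).

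Across the set, the comparison of KO M0 with WT M0 asks whether loss of miR-210 alone moved the pathway in resting cells. Egln3 was the only member called higher, 1 of 32, against 0.220% of the 14089 genes tested, and 0 members were called lower, against 0.241%. Members were called at an adjusted p under 0.05 together with a change of over 1.2-fold either way. DESeq2 called 2 members higher, Egln3 and Slc2a1, and 0 lower, against 105 and 113 of the 14089 genes. At an unadjusted p under 0.05 there were 9 members, all higher in KO: Egln3, Epas1, Vegfa, Bnip3, Ero1a, P4ha2, Slc2a1, Slc16a3 and Ak4, against 1410 of the 14089 genes in either direction. In sign, 26 of the 32 were above 0 and 6 below, and the median difference was 0.130 on the log2 scale, against 0.000 over all genes. Without KO M0 library 2 it was 0.215, and with any other library left out 0.110 to 0.147. All 3 KO libraries stood above all 3 WT libraries for 9 of the 32 members, against 9% of the 14089 genes, and below them for 0 of 32, against 5.98%.

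The members that leaned upward in KO M0 without passing belong to several branches of the pathway. They are named here after their values were seen. Ero1a, the oxidase of disulfide formation in the endoplasmic reticulum, was at 105, 106 and 95.1 CPM in WT M0 and 121, 135 and 133 in KO M0, a difference of 0.33 ± 0.08 (adjusted p = 0.143). Its KO libraries were all higher. Ak4, a mitochondrial adenylate kinase, was at 4.72, 11.3 and 5.32 CPM in WT M0 and 12.4, 12.5 and 9.0 in KO M0, a difference of 0.64 ± 0.29 (adjusted p = 0.488). WT M0 library 2 lay within the KO range, and without it the difference was 1.15 (adjusted p = 0.0189). Bnip3, a mitophagy receptor, differed by 0.24 ± 0.09 and P4ha2, a second collagen prolyl hydroxylase subunit, by 0.37 ± 0.16 (adjusted p = 0.384 and 0.456). Fam162a, a mitochondrial protein induced by HIF, was at 8.41, 9.18 and 8.64 CPM in WT M0 and 11.4, 9.56 and 10.9 in KO M0, with no overlap and an adjusted p of 0.638. Beside these values, 4 fibroblast markers summed to 0.510 to 1.14 CPM in WT M0 and 1.56 to 2.10 in KO M0, and 3 endothelial markers to 31.0 to 39.5 and 25.2 to 26.1, and their part in the result was not tested. Most of the endothelial sum was Kdr, at 28.1 to 37.0 CPM in WT M0 and 21.1 to 23.2 in KO M0. Pecam1 went the other way, at 1.0 to 2.06 CPM in WT M0 and 2.12 to 2.90 in KO M0, while Cdh5 overlapped.

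**Figure D2:**
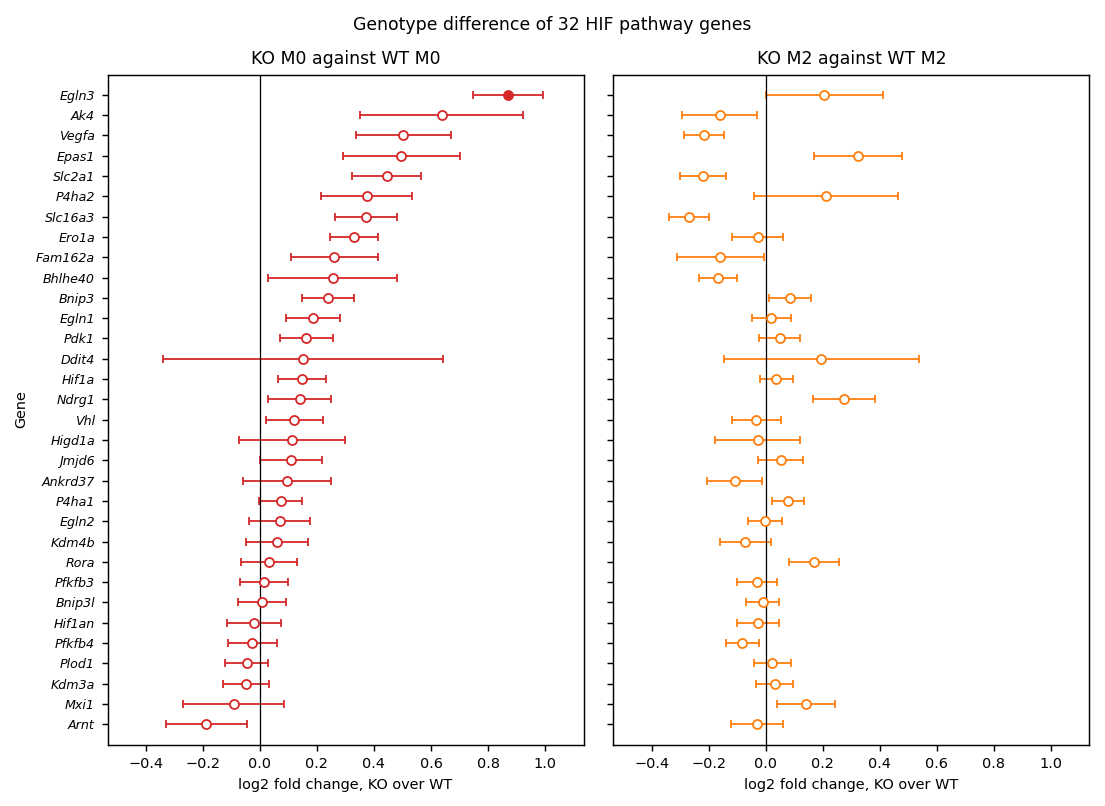
Log2 fold change of KO over WT (horizontal axis) for the 32 members tested (vertical axis, ordered by the M0 value), M0 on the left and M2 on the right, with bars of 1 standard error and filled points for calls. Egln3 in M0 is the only filled point, 26 of 32 points lie above 0 in M0 and 15 of 32 in M2.

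In M2 cells the same members showed no such lean. Compared with WT M2, 0 of 32 members were called higher in KO M2, against 0.408% of 13980 genes, and 0 lower, against 0.572%. DESeq2 also called 0 in each direction, against 58 higher and 82 lower of the 13980 genes. At an unadjusted p under 0.05 there were 5 members, Ndrg1 higher and Vegfa, Slc2a1, Slc16a3 and Bhlhe40 lower in KO, against 1498 genes. In sign, 15 were above 0 and 17 below, with a median of -0.007 against 0.002 over all genes, and -0.001 to 0.020 with a library left out. All 3 KO libraries stood above the WT libraries for Epas1, Bnip3, Ndrg1 and Rora, 4 of 32 against 7.73% of genes, and below them for Vegfa, Pfkfb4, Slc2a1 and Slc16a3, 4 of 32 against 8.34%. The genotype comparisons in M0 and M2 used separate libraries.

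Whether the genotype difference itself changed with IL-4 was tested with the interaction term over all 12 libraries, whose negative values mean a lower KO to WT ratio in M2 than in M0. By edgeR 0 members were called positive and 0 negative, as were 0% of the 14825 genes in each direction. At an unadjusted p under 0.05 there were 6 members, all negative (Slc16a3, Slc2a1, Vegfa, Ero1a, Egln3 and Ak4), against 1327 genes. DESeq2 called 2 members negative, Slc2a1 and Slc16a3, and 0 positive, against 65 and 27 of the 14825 genes. In sign, 25 of the 32 were negative, with a median of -0.128 against -0.002 over all genes.

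The 3 members with the lowest interaction p were all secreted or surface proteins of the HIF response, named here after their values were seen. Slc16a3 (MCT4), the lactate exporter, was at 124, 150 and 126 CPM in WT M0, 188, 152 and 182 in KO M0, 110, 119 and 133 in WT M2 and 103, 99.3 and 96.8 in KO M2. Its KO libraries were above all WT libraries in M0 and below them all in M2. The interaction was -0.65 ± 0.14 (edgeR adjusted p = 0.115, over the alternatives 1.8e-05 to 0.26). It was called without WT M0 library 2 (-0.750, adjusted p = 0.0182) or without KO M0 library 2 (-0.745, adjusted p = 0.0189). Slc2a1 (GLUT1), the glucose transporter, was at 70.8, 84.3 and 83.6 CPM in WT M0, 111, 92.0 and 125 in KO M0, 150.1, 150.2 and 182 in WT M2 and 128, 134 and 149.9 in KO M2. It had the same pattern, though the nearest M2 libraries were 149.9 and 150.1 CPM, and its interaction was -0.67 ± 0.16 (adjusted p = 0.137, over the alternatives 8.87e-06 to 0.331). Without KO M0 library 2 the interaction of Slc2a1 was -0.79 and was called (adjusted p = 0.0193).

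Vegfa was at 384, 325 and 371 CPM in WT M0, 452, 405 and 688 in KO M0, 278, 264 and 326 in WT M2 and 239, 251 and 256 in KO M2. KO M0 library 3 was far above the other 2 of its group. The difference in M0 was 0.50 ± 0.17 (adjusted p = 0.293), and 0.23 without that library. The interaction was -0.72 ± 0.20 (adjusted p = 0.234, over the alternatives 2.1e-08 to 0.5) and -0.47 without KO M0 library 3. Without KO M0 library 2 it was -0.88 and was called (adjusted p = 0.035). The M0 difference without KO M0 library 2 was 0.66 (adjusted p = 0.0729). Of the alternatives, the lowest p of all 3 genes came without a filter on low counts.

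**Figure D3:**
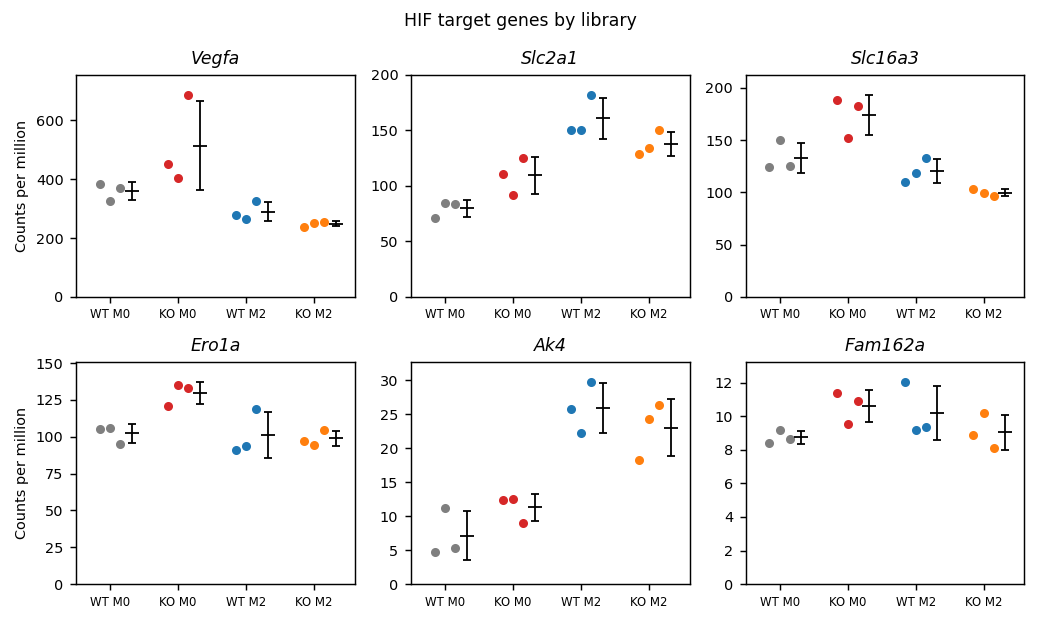
CPM, TMM-scaled (vertical axis, from 0) of 6 HIF target genes in the 4 groups, each coloured point a library and each black bar the mean ± SD of 3 libraries. For Vegfa, Slc2a1 and Slc16a3 the KO points lie above the WT points in M0 and below them in M2.

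After IL-4 the share of members that rose was near that of all genes counted, and the share that fell was above it. In WT cells 7 of 32 members rose, against 23.6% of the 11135 protein-coding genes with an average normalized count over 10, and 11 fell, against 21.8%. In KO cells 5 rose, against 18.5% of 11117 genes, and 12 fell, against 18.1%. The median difference of the 32 members was -0.052 in WT and -0.181 in KO, against 0.005 and -0.013 over all these genes. With a library left out the median ran from -0.098 (without WT M2 library 3) to -0.012 (without WT M0 library 2) in WT, and from -0.259 (without KO M0 library 2) to -0.117 (without KO M0 library 3) in KO. Both comparisons use the M0 and M2 libraries of the genotype comparisons, so the values are not independent of those above. As background to both, 3 dendritic cell markers summed to 0.201 to 0.670 CPM in M0 and 9.45 to 17.6 in M2, and 3 endothelial markers to 25.2 to 39.5 and 15.7 to 19.9. The dendritic cell sum in M2 was nearly all Zbtb46, with Flt3 at 0 and Siglech at 1 count in 1 library. Of the endothelial markers, Kdr went from 21.1 to 37.0 CPM in M0 to 8.37 to 12.2 in M2 and Cdh5 was also lower in M2. Pecam1 went the other way, from 1.0 to 2.90 CPM in M0 to 6.23 to 8.67 in M2. The 4 fibroblast markers summed to 0.510 to 1.14 CPM in WT M0 and at most 0.246 in WT M2, and to 1.56 to 2.10 in KO M0 and 0.122 to 0.748 in KO M2. For all 3 lists their part in the result was not tested.

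The 5 members with the largest changes in each genotype came from different branches. Bhlhe40, a transcriptional repressor that HIF induces, was at 7.90, 5.68 and 6.33 CPM in WT M0, 9.04, 5.70 and 9.20 in KO M0, 732, 671 and 818 in WT M2 and 640.2, 636 and 698 in KO M2. It rose 113-fold in WT, by 6.83 ± 0.12 on the log2 scale (adjusted p = 1.27e-13), and by 6.39 ± 0.15 in KO (adjusted p = 1.57e-11). Per kilobase it reached 116.5 in WT M2, above the other members. Ak4 was at 25.7, 22.3 and 29.8 CPM in WT M2 and 18.3, 24.3 and 26.4 in KO M2, above all M0 libraries. It rose by 1.85 ± 0.23 in WT (adjusted p = 1.91e-05) and by 1.05 ± 0.17 in KO (adjusted p = 3e-04). The values of Ak4 in WT M0 were spread over 4.72 to 11.3 CPM.

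P4ha2 was at 8.29, 8.36 and 8.54 CPM in WT M0, 9.38, 12.7 and 10.9 in KO M0, 2.46, 2.93 and 3.57 in WT M2 and 2.32, 3.84 and 4.11 in KO M2. It fell by 1.48 ± 0.18 in WT (adjusted p = 1.66e-05) and by 1.66 ± 0.22 in KO (adjusted p = 6.6e-05). Ndrg1, a stress-induced gene long used as a marker of hypoxia, was at 71.4, 61.9 and 65.4 CPM in WT M0, 84.5, 63.2 and 73.3 in KO M0, 27.5, 20.8 and 29.0 in WT M2 and 30.9, 31.5 and 30.5 in KO M2. It fell by 1.35 ± 0.11 in WT and by 1.23 ± 0.11 in KO (adjusted p = 2.78e-07 and 2.15e-06). Pfkfb3, which makes the activator of glycolytic phosphofructokinase, was at 201, 188 and 185 CPM in WT M0, 186, 189 and 211 in KO M0, 80.1, 72.6 and 79.9 in WT M2 and 71.8, 74.6 and 81.0 in KO M2. It fell by 1.29 ± 0.07 in WT and by 1.35 ± 0.09 in KO (adjusted p = 3.65e-09 and 7.17e-08). For each of these 3 genes all M2 libraries were below all M0 libraries.

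**Figure D4:**
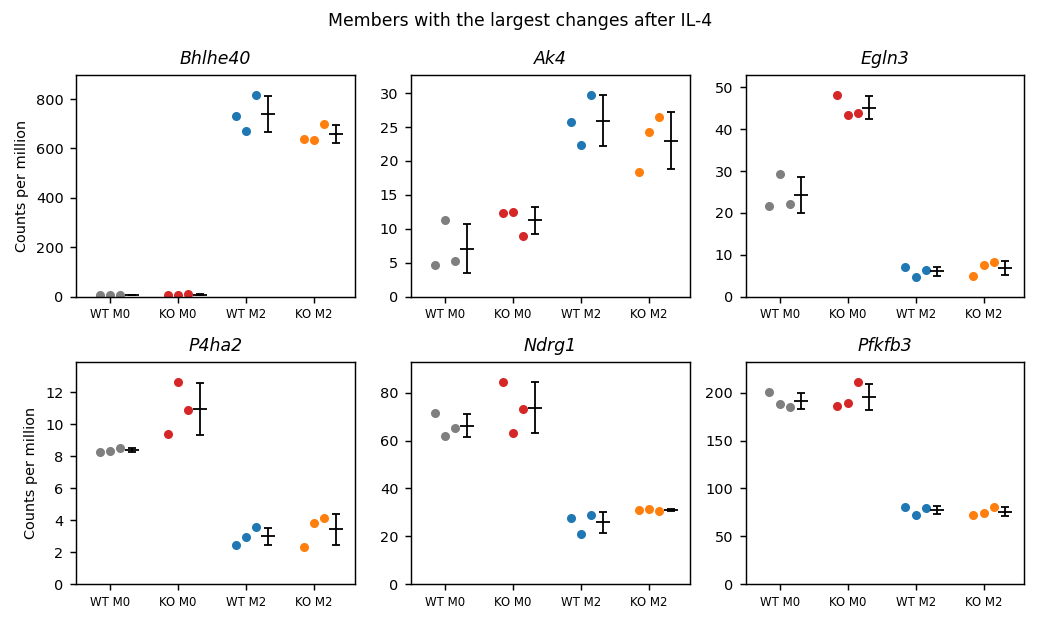
CPM, TMM-scaled (vertical axis, from 0) of the members with the largest changes after IL-4, each coloured point a library and each black bar the mean ± SD of 3 libraries. Bhlhe40 lies at 9.20 or below in M0 and at 636 or above in M2, Ak4 rises and the other 4 genes fall.

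Pairs of related members moved in opposite directions after IL-4. Pfkfb4, the isoenzyme of Pfkfb3, rose by 1.18 ± 0.07 in WT (55.6 to 62.6 CPM in WT M0, 130 to 141 in WT M2) and by 1.12 ± 0.07 in KO, while Pfkfb3 fell. Bnip3l (NIX) rose by 0.89 ± 0.07 in WT and 0.86 ± 0.08 in KO, from a range of 166 to 187 CPM in WT M0 to 314 to 341 in WT M2, while Bnip3 fell by 0.69 ± 0.07 and 0.85 ± 0.09, from 66.8 to 73.1 down to 42.2 to 44.0 CPM. As a limit of counting, Bnip3 shares 14.5% of its longest transcript, and Bnip3l 6.59%, as exact stretches with other genes, and how reads there were counted is not given in the sources used here. Slc2a1 rose by 1.02 ± 0.09 in WT and by 0.35 ± 0.11 in KO (adjusted p = 7.99e-07 and 0.0274), the latter being lost without KO M0 library 2 (0.23, adjusted p = 0.0691), KO M2 library 2 (0.35, 0.0671) or KO M2 library 3 (0.27, 0.109). Slc16a3 differed by -0.14 ± 0.09 in WT (adjusted p = 0.226) and fell by 0.79 ± 0.09 in KO (adjusted p = 2.26e-05). The difference between these pairs of values is the interaction given above, which did not pass.

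The 3 tested members that modify collagen fell in both genotypes: P4ha1 by 0.61 ± 0.06 in WT and 0.62 ± 0.07 in KO, Plod1, a lysyl hydroxylase, by 1.23 ± 0.07 and 1.17 ± 0.07, and P4ha2 as given. Pdk1, which restrains pyruvate entry into mitochondria, fell by 0.42 ± 0.08 and 0.54 ± 0.09. Vegfa fell by 0.30 ± 0.09 in WT (adjusted p = 0.0102) and by 1.03 ± 0.16 in KO (adjusted p = 2e-04). The WT call of Vegfa was lost without WT M2 library 1, WT M2 library 2 or WT M0 library 1, with values of -0.28, -0.24 and -0.26, and with all 12 libraries in a single fit (-0.31, adjusted p = 0.0934). Kdm3a, a histone demethylase, fell by 0.34 ± 0.06 in WT and by 0.26 ± 0.08 in KO, where it stood at the fold limit. The KO call of Kdm3a was lost on the adjusted p without KO M2 library 1 or 3 (-0.285 and -0.225, edgeR adjusted p = 0.063 and 0.0816). It was lost on the fold limit without KO M0 library 1 or 2 (-0.255 and -0.239), by DESeq2 (-0.259) and with RLE in place of TMM scaling (-0.259). Ankrd37 was called in WT alone, where it rose by 0.43 ± 0.10, against 0.22 ± 0.15 in KO, and Ero1a in KO alone, where it fell by 0.37 ± 0.08, against -0.01 ± 0.10 in WT, and the interactions of both did not pass (adjusted p = 0.784 and 0.368).

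The remaining members called in no comparison were Ddit4, Kdm4b, Mxi1, Higd1a, Fam162a, Rora and Jmjd6. Ddit4, an inhibitor of mTORC1 signalling that responds to many stresses, was at 0.869 to 3.50 CPM and its estimates had standard errors of 0.30 to 0.65 on the log2 scale, so that only large differences were detectable. Mxi1, a MYC antagonist, differed after IL-4 by 0.44 ± 0.17 in KO (adjusted p = 0.0577) and was called in 4 of the 10 alternatives with all libraries. It was also called without KO M0 library 2 (0.51, adjusted p = 0.0422) or 3 (0.58, adjusted p = 0.0262). Higd1a, Fam162a, Kdm4b, Rora and Jmjd6 ranged from 7.69 to 47.8 CPM over all libraries. Kdm4b was called after IL-4 in WT only without WT M0 library 2 (0.29, adjusted p = 0.0218). Jmjd6 was called after IL-4 in KO only without KO M0 library 2 (-0.28, adjusted p = 0.03).

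**Figure D5:**
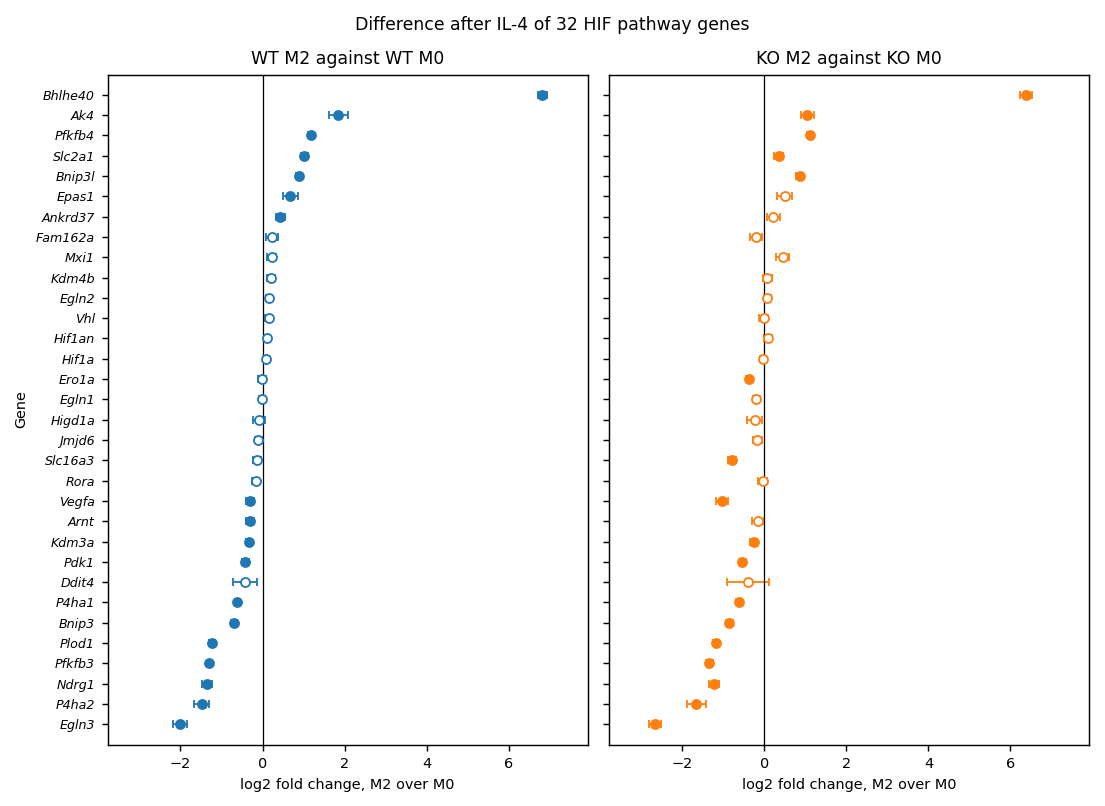
Log2 fold change of M2 over M0 (horizontal axis) for the 32 members tested (vertical axis, ordered by the WT value), WT on the left and KO on the right, with bars of 1 standard error and filled points for calls. Bhlhe40 stands apart at 6.83 and 6.39, and 18 points are filled in WT and 17 in KO.

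The genes around the pathway were read from 3 further lists. Of 19 other genes of HIF machinery, cofactors and chaperones, 0 passed between genotypes by edgeR in either state, with 16 tested in M0 and 17 in M2, where 2 and 1 had an unadjusted p under 0.05 and DESeq2 called 0. After IL-4, of 17 tested, 4 rose and 2 fell in WT, against 23.6% and 21.8% of the protein-coding genes counted. In KO 4 rose and 4 fell, against 18.5% and 18.1%. Cited2, which competes with HIF for its coactivator, fell by 0.88 ± 0.07 in WT and 0.77 ± 0.08 in KO, and Arnt2, a relative of Arnt, rose by 3.79 ± 0.42 and 3.26 ± 0.43. Of 23 other HIF targets, 13 were tested between genotypes in M0. There 10 lay above 0 in KO and 3 below, with a median of 0.209 against 0.000 over all genes and 6 at an unadjusted p under 0.05. In M2, 6 of 16 lay above 0 and 10 below (median -0.023), with 2 at an unadjusted p under 0.05. Edn1, the vasoconstrictor endothelin, was lower in KO M2 by 1.58 ± 0.34 (edgeR adjusted p = 0.0348). It was at 6.79, 6.18 and 15 CPM in WT M2 and 4.15, 3.22 and 1.74 in KO M2. Edn1 had 0 counts in all M0 libraries, and DESeq2 did not call its M2 difference. The interaction called 0 of these targets by edgeR, with 5 at an unadjusted p under 0.05, and by DESeq2 only Insig2, upward. After IL-4, of 15 of these targets tested, 5 rose and 5 fell in WT, against 23.6% and 21.8% of the genes counted. In KO 4 rose and 7 fell, against 18.5% and 18.1%.

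The core glycolytic enzymes, which share HIF control with the members, were 13 in number and all were tested. None passed between genotypes by edgeR: 11 were above 0 in KO M0 (median 0.200 on the log2 scale) and 11 below 0 in KO M2 (median -0.072), with 6 and 1 at an unadjusted p under 0.05 and 0 called by DESeq2. The interaction was below 0 for all 13, with a median of -0.261. By edgeR 0 of these passed, with 6 at an unadjusted p under 0.05, and DESeq2 called Pkm alone, downward. After IL-4 in WT, Pfkp, Pgam1, Eno1 and Ldha rose and Hk1, Pfkl and Tpi1 fell, and in KO Pfkp rose and Hk1, Pfkl, Tpi1 and Pgk1 fell. In WT these were 4 and 3 of 13, against 23.6% and 21.8% of the genes counted. In KO they were 1 and 4 of 13, against 18.5% and 18.1%. Pgk1, chosen after its values were seen, was at 99.4, 109 and 106 CPM in WT M0, 138, 117 and 143 in KO M0, 112, 115 and 129 in WT M2 and 102, 108 and 115 in KO M2, with KO above WT in every M0 library and an adjusted p of 0.227.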

How the data were processed

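RNA of 12 bone marrow-derived macrophage cultures was sequenced by the authors after ribosomal RNA depletion as stranded paired-end reads. The authors trimmed reads with Trimmomatic, removed PCR duplicates with Picard, aligned to GRCm39 with STAR and counted stranded reads per gene with featureCounts, so that the deposited values used here are raw counts (the deposited tables of size-factor normalized counts were not used). Removing duplicates without molecular identifiers can lower the counts of abundant genes. Table columns name a group and a number from 1 to 3, called library 1 to 3 here, which the sources used here do not tie to single samples.

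Counts were tested with edgeR 4.0.16 (quasi-likelihood F-test, TMM, filterByExpr) in R 4.3.3 on the 6 libraries of each comparison, and on 12 for the interaction, with Benjamini-Hochberg adjustment over all genes tested. Calls needed an adjusted p under 0.05 and an absolute change over 1.2-fold, with no limit on the change for the interaction. After IL-4 only protein-coding genes with an average normalized count over 10 were counted. DESeq2 1.42.0, other scalings and filters, a block and left-out libraries were alternatives. Symbols came from GENCODE M39, which held 56323 of the 56941 identifiers. Replicate libraries were further apart than sampling of reads allows (chi-square per gene 1.89 to 9.85 over 12 pairs). The code was tested on simulated data. The members and lists were chosen with earlier results of these data known. The result of 1 gene among the other HIF targets is not reported here. Named genes were the HIF subunits and their regulators, every member called between genotypes, and the 5 members with the largest changes after IL-4 in each genotype.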

Additional observations from a re-analysis of the deposited data

Results flagged for a closer look

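The KO libraries of Vegfa, Slc2a1 and Slc16a3 all lay above the WT libraries in M0 and all below them in M2, which is why these 3 are listed. The difference between the 2 states was tested by the interaction and did not pass with edgeR: -0.72 for Vegfa (adjusted p = 0.234), -0.67 for Slc2a1 (adjusted p = 0.137) and -0.65 for Slc16a3 (adjusted p = 0.115). DESeq2 gave adjusted p of 0.0546, 0.0227 and 0.00871. Without KO M0 library 2, edgeR called all 3 (adjusted p = 0.035, 0.0193 and 0.0189). In that fit 61 of 15054 genes were called negative and 16 positive. No explanation was tested.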

How the results depend on the processing

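Counts of members called after IL-4 stayed within 1.5 times the reported counts in every alternative run. Of the 51 member values called in the report or in an alternative, none changed sign, and 462 of 491 refits with all libraries and 301 of 330 with a library left out kept their side of the threshold.

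The genotype calls were less stable. In KO M0 against WT M0, 2 members were called higher by DESeq2 (Egln3 and Slc2a1), 2 by DESeq2 on genes with at least 5 counts, an alternative chosen after seeing the data, 6 without a filter on low counts (Egln3, Vegfa, Ero1a, Slc2a1, Slc16a3 and Ak4) and 2 with the library number as a replicate block (Egln3, and Ero1a at an adjusted p of 0.0481). With a library left out the count ran from 0 to 3, with 0 without WT M0 library 1 or 3. Without KO M0 library 2 there were 2, Egln3 and Slc2a1 (0.56, adjusted p = 0.0415). Without WT M0 library 2 there were 3, Egln3, Ak4 and Slc16a3 (0.47, adjusted p = 0.0418). In KO M2 against WT M2, 1 member was called lower, Slc16a3, without the filter and 1 with the replicate block. For the interaction, 2 members were called negative by DESeq2 in both forms, 4 without the filter, and 0 to 3 with a library left out. Without KO M0 library 2 there were 3, Vegfa, Slc2a1 and Slc16a3. Without WT M0 library 2 there were 2, Slc16a3 and Ak4 (-1.32, adjusted p = 0.0431). The cause was not tested.

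Over the 14089 genes of KO M0 against WT M0, DESeq2 called 105 higher and 113 lower and the block 132 and 152, against 31 and 34. The fit without a filter called 291 and 241 of 26255 genes and the fit of all 12 libraries 121 and 127 of 14825. With a library left out the calls ran from 12 and 8 (without WT M0 library 3) to 142 and 160 (without WT M0 library 2). For KO M2 against WT M2 the fit without a filter called 118 and 242, the block 98 and 191 and the fit of all 12 libraries 28 and 32, against 57 and 80, and with a library left out from 27 and 26 (without KO M2 library 2) to 83 and 132 (without KO M2 library 3). For the interaction DESeq2 called 27 positive and 65 negative of 14825 genes and the fit without a filter 95 and 246 of 28668, against 0 and 0. There were 16 and 61 of 15054 without KO M0 library 2 and 14 and 51 of 15059 without WT M0 library 2. Without any other library there were at most 5 in a direction. The library numbers are not tied to animals, and deviations of same-numbered libraries correlated at -0.333 to 0.402, so the block is given only here. At these depths the counts of Ddit4 allowed only large differences to be seen.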
